A study of Mus musculus with 14 samples.

Results

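Rarely skipped cassette exons are exons that nearly every transcript of a gene keeps, but that a few transcripts leave out. They were taken from the list of cassette exons, each flanked by an upstream and a downstream exon, that was quantified in 2 RNA-seq libraries of mouse whole spinal cord. An exon belonged to the group when it was 31 to 250 nt long, had at least 10 junction reads in each library, was crossed by at least 1 skipping junction read in each library, and had a mean inclusion above 90% over both libraries. Inclusion was computed from junction reads alone: the 2 inclusion junctions (upstream exon to cassette exon, and cassette exon to downstream exon) were averaged, and this average was taken as a share of itself plus the skipping junction. Of 13189 cassette exon events, 9396 were covered in both libraries and 8509 of these had the required length. The rule kept 786 events, which were 778 distinct exons of 652 genes. Because inclusion and skipping reads chose the exons, those values are described below without a test of the group against others.

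The study measured where the neuronal RNA-binding protein NOVA binds in spinal motoneurons, and how cassette exons are spliced in the spinal cord. The RNA-seq libraries were 1 male and 1 female, from 12-week-old B6/SJL mice of the Tg(SOD1)2Gur/J strain, so that both carried a human wild-type SOD1 transgene, and they were made from poly(A) RNA of whole spinal cord. The 12 HITS-CLIP libraries, in which RNA crosslinked to an immunoprecipitated protein is sequenced, came from spinal cords of 3-month-old C57BL/6 mice, pooled from several animals for each motoneuron library and from a single animal for each whole spinal cord library. Motoneuron (MN) libraries were 4 from the transgenic line Chat:GFP-Nova #6 (Chat6) and 4 from line #17 (Chat17), both hemizygous, in which a GFP-tagged NOVA2 under the control of the Chat locus of a bacterial artificial chromosome was precipitated with anti-GFP. The 4 whole spinal cord (WSC) libraries came from wild-type mice, and endogenous NOVA was precipitated there with anti-Nova serum. The tagged protein, the antibody, the pooling of animals and the sequencing depth therefore all differed with the group and cannot be told apart from the cell type. In the bulk RNA, fewer cells of a type and less RNA per cell cannot be told apart either.

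Cassette exons are recognised by the spliceosome through the acceptor site at their start and the donor site at their end. When the length of a coding exon is a multiple of 3, its skipping keeps the reading frame, and otherwise the frame shifts, often to a stop codon that can send the transcript to nonsense-mediated decay. NOVA proteins bind clusters of YCAY (Y, a pyrimidine), and in neurons they are known to promote or repress exons according to where they bind around them.

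The splice sites of the most deeply read of these exons are shown first, as the sequence that the spliceosome meets when it keeps or leaves out the exon. Each line gives the last 20 intronic bases and the first 3 exonic bases of the acceptor, then the last 3 exonic and the first 6 intronic bases of the donor, 5′ to 3′ on the transcribed strand of mm9, with exon bases in capitals.
App (54 nt, chr16:84971653-84971706, minus strand): tctcttgcttcctgcaccagTCG and CAGgtatct
Calm2 (31 nt, chr17:87842036-87842066, minus strand): cctttttgaactctttgtagGCT and CAGgtaaga
Plekhb1 (40 nt, chr7:107802168-107802207, minus strand): tggaggatcttgctttgcagAGC and CCGgtgagt
Ldhb (124 nt, chr6:142441013-142441136, minus strand): ctcctcgctctggtttctagTGC and AAGgtgaga
Skp1a (144 nt, chr11:52057117-52057260, plus strand): agaagtatttgttgttgtagGTC and CTGgtatgt
Ckmt1 (96 nt, chr2:121185681-121185776, plus strand): tcctcttaactccttttcagGTA and AAAgtgagc
Ndrg4 (48 nt, chr8:98234564-98234611, plus strand): agctggctccttgttcccagGTT and AAGgtcaga
Laptm4a (77 nt, chr12:8941502-8941578, plus strand): ttctgtttttgttttcttagATA and TCTgtaagt
The exons that differed most clearly between the 2 RNA-seq libraries had these sites, shown in the same way.
Rab28 (89 nt, chr5:42089629-42089717, minus strand): atattatttttatattctagGAA and CAGgtatga
Cadps (147 nt, chr14:13290197-13290343, minus strand): tctgtctgtttcttccacagGAG and TGAgtgtgt
Hsph1 (132 nt, chr5:150426040-150426171, minus strand): tgcctgggctttcatttcagAAA and AAAgtgagt
Trak2 (195 nt, chr1:58992590-58992784, minus strand): tagggactcttccttcttagATG and TGAgtgagt
Aak1 (243 nt, chr6:86909026-86909268, plus strand): ctcactactctcctgtgcagTTT and GGGgtaaga
Ypel3 (44 nt, chr7:133921568-133921611, plus strand): gtctccccactaccctccagTCC and TGTgtgagt
Snapin (47 nt, chr3:90294470-90294516, minus strand): acttttgtaccactttgcagAGA and CAGgtgagt
Eef1d (72 nt, chr15:75731121-75731192, minus strand): tctttctgcactgtctgcagGAG and GGAgtgagt
Mpi (142 nt, chr9:57396844-57396985, minus strand): cctccactgcccatccacagGAG and AGAgtaagg
Skp1a (97 nt, chr11:52050339-52050435, plus strand): aatttctgtaccctttttagATG and AAGgtaagt
Arfip2 (222 nt, chr7:112786333-112786554, minus strand): ccccccccccttccaatcagTGC and CAGgtgcct
The gt at the start and the ag at the end of the introns were used to place the exons on the genome, so they are not a result. The letters around these dinucleotides differed widely. Scored in bits against the letter frequencies of 206601 annotated introns, a higher score being closer to the usual site, the acceptors ran from 5.12 (Arfip2) to 14.3 (Laptm4a) and the donors from 2.27 (Cadps) to 12.8 (Skp1a, 97 nt).

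The whole group had splice sites close to those of other cassette exons. The median donor score of the rarely skipped exons was 7.85 bits, against 7.71 bits for all covered exons of the same length range, and the median acceptor score was 8.60 against 8.75 bits. Both medians lay below those of exons with no skipping read in either library (never skipped, 2748 exons), which were 8.0 and 9.22 bits. They lay above those of exons with a mean inclusion of at most 90% but at least 10% (intermediate, 2255 exons), at 7.56 and 8.44 bits, and of exons below 10% (mostly skipped, 1603 exons), at 7.03 and 8.06 bits. With at least 200 junction reads in each library the order of the acceptors turned, at 8.46 bits for the rarely skipped and 8.62 bits for the intermediate exons, while the donors stood at 7.67 and 6.92 bits. The sites of the flanking exons were alike, with median upstream donors of 8.47 and 8.53 bits and downstream acceptors of 9.78 and 9.92 bits for the group and for all covered exons.

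The exons had a median length of 104.5 nt and a GC content of 50.6%, against 103 nt and 50% for all covered exons. The introns before and after them had median lengths of 1933 and 1691 nt. They sat in well read genes. The median gene had 25.3 RPKM (reads per kilobase of gene and 1000000 reads) in the male library, against 14.6 RPKM over all covered exons, and the median exon had 219.5 junction reads there against 86. The rule asks for a skipping read in each library, which a deeply read gene supplies more easily, so the rule itself favours deeply read genes.

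The rarely skipped exons were annotated as coding more often than exons of lower inclusion, but they kept the reading frame less often than intermediate exons. A place in the coding sequence of an annotated transcript, without its first or last coding base, was held by 612 exons (78.0%), against 55.9% of intermediate, 13.5% of mostly skipped and 75.2% of never skipped exons. A further 58 exons held the first or last coding base, 31 lay in a 5′ untranslated region and none in a 3′ untranslated region. To count as coding, an exon and its flanks had to match an annotated protein-coding transcript. The exon itself was annotated for 93.9% of rarely skipped, 86.4% of intermediate, 60.7% of mostly skipped and 93.4% of never skipped exons. The coding shares therefore depend on the annotation as well. The length was a multiple of 3 in 353 of 786 exons (44.9%, 95% Wilson interval 41.5 to 48.4%). The same share was 58.4% for intermediate exons, 40.2% for mostly skipped and 39.5% for never skipped exons, and 45.2% for all covered exons. Within the coding exons, 48.2% of the rarely skipped exons had a length that was a multiple of 3, against 74.0% of intermediate and 40.5% of never skipped exons. Only 217 mostly skipped exons were coding, and 83.4% of these had a length that was a multiple of 3. Exons share genes, so these intervals cover counting error only.

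The same order was seen where reads were plentiful. Among exons with at least 200 junction reads in each library, 46.7% of 379 rarely skipped exons, 71.8% of 294 intermediate exons and 38.5% of 545 never skipped exons had a length that was a multiple of 3. Inside the group the share did not follow the level of inclusion. It was 46.3% at 90 to 95% inclusion, 40.8% above 95 and up to 98%, and 48.8% above 98%.

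**Figure D1:**
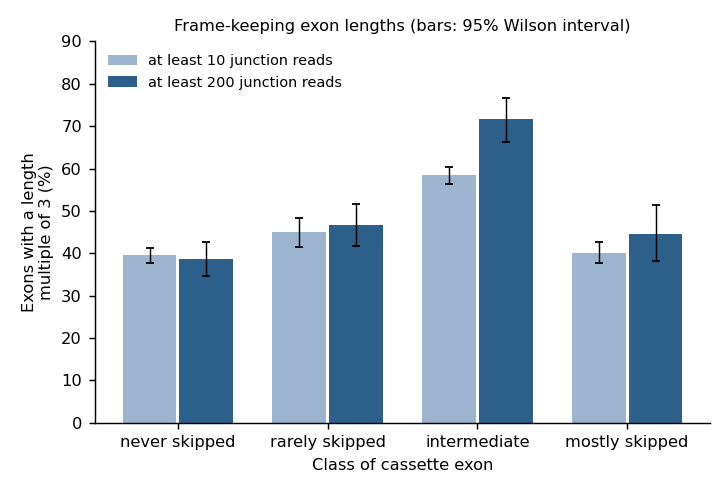
Share of exons whose length is a multiple of 3 (y axis, percent) in 4 classes of cassette exon (x axis), for exons with at least 10 (light) or at least 200 (dark) junction reads in each RNA-seq library. Error bars are 95% Wilson intervals. The rarely skipped exons (44.9 and 46.7%) lie nearer to the never skipped exons (39.5 and 38.5%) than to the intermediate exons (58.4 and 71.8%).

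Skipping was then followed through the annotated reading frame. In 280 of the 612 coding exons (45.8%) the frame and the annotated stop codon were kept, and in 248 (40.5%) skipping led to a stop codon more than 50 nt before the last exon junction, the position that usually exposes a transcript to decay. Such an early stop followed skipping of 19.4% of intermediate, 12.0% of mostly skipped and 47.8% of never skipped coding exons. Of the rarely skipped exons whose length was not a multiple of 3, 76.3% had an early stop. Skipping gave another stop in 75 exons and no stop in the annotated transcript in 9. The skipped form was itself annotated for 54.1% of the exons, against 83.4% of intermediate, 98.3% of mostly skipped and 44.5% of never skipped exons.

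Inclusion within the group ran up to 99.9% in either library. By the mean of both, 361 exons lay at 90 to 95%, 265 above 95 and up to 98%, and 160 above 98%, of which 68 were above 99%. The median inclusion was 95.8% in the male and 95.9% in the female library. The exons rested on few skipping reads, with a median of 4 in each library, and 248 of the 786 had only 1 such read in at least 1 library. At least 10 skipping reads in each library stood behind 94 exons. Intervals for single exons were therefore broad, with a median width of 7.90 percentage points in the male and 8.06 in the female library. They cover counting error only, since the reads carried no molecular identifiers.

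The members nearest the threshold, among exons with at least 200 junction reads in each library, lay within its counting error. Cdc42se2 (154 nt) had an inclusion of 88.7% in the male and 91.3% in the female library, and Tcf25 (75 nt) had 89.1 and 91.1%. Just outside were Pdxdc1 (230 nt) with 85.7 and 94.2%, and Mark4 (80 nt) with 93.4 and 86.3%. In all, 647 members were above 90% in each library and 139 fell below it in 1 of them.

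Some of these exons were read unevenly at their ends. The reads on the 2 inclusion junctions differed at least 3-fold in 250 members (31.8%, against 32.5% of all covered exons) and at least 10-fold in 111. No read at all was found on 1 of the inclusion junctions in either library for 46 members, so that inclusion there rested on the other end of the exon alone. The event for a 171-nt exon of S100a1, a calcium-binding protein, had 1169 reads on its first and 0 on its second inclusion junction in the male library, and 1015 and 0 in the female library. A 169-nt exon of Matr3, a nuclear matrix protein, had 0 reads on the first junction in both libraries and 530 and 482 on the second. Such events do not show the whole exon to be included. Members were also not all separate events, as 123 shared their skipping junction with another member, and the 5 members of Eif5, a translation initiation factor, shared junction reads among themselves.

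The most deeply read member was a 33-nt exon of Mbp, myelin basic protein, with 44795 junction reads in the male and 37264 in the female library. Only 51 and 35 of these joined the flanking exons directly, and inclusion was 99.8% in both libraries. Mobp, another protein of myelin, held the largest number of skipping reads of the group. Its 79-nt exon of the 5′ untranslated region was skipped by 515 reads in the male and 439 in the female library, at inclusions of 94.2 and 95.3%. Its first inclusion junction carried 12513 reads and its second 4136 in the male library.

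App, the amyloid precursor protein, had a 54-nt exon at 98.1 and 98.8% in the male and female libraries, with 114 and 64 skipping reads, and its skipping keeps the frame. Calm2, a calmodulin gene, had the shortest exon of this set, 31 nt, at 99.8 and 99.6% with 10 and 18 skipping reads. Its skipping is not annotated and leads to an early stop. The 124-nt exon of Ldhb, a lactate dehydrogenase subunit, reached 99.3 and 99.1%, and the 40-nt exon of Plekhb1 97.5 and 98.3%. These 4 exons differed by less than 1 percentage point between the libraries.

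Ckmt1, mitochondrial creatine kinase, lost its 96-nt exon in 19 and 4 reads, at 99.1 and 99.8% inclusion, in frame. The 48-nt exon of Ndrg4, also in frame, stood at 98.7 and 99.5%. Skp1a, a subunit of ubiquitin ligases, contributed a 144-nt in-frame exon at 98.6 and 99.1%, whose first inclusion junction had 864 reads and its second 4524 in the male library. Laptm4a, a lysosomal membrane protein, had a 77-nt exon at 99.6% in both libraries, with 8 and 7 skipping reads and an early stop after skipping.

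The 2 RNA-seq libraries lay close to each other for most of the exons. The absolute difference in inclusion had a median of 2.06 and a maximum of 13.8 percentage points, and the 95% Wilson intervals of the libraries overlapped for 756 of the 786 exons. Inclusion was higher in the male library for 380 exons and in the female library for 404. A two-sided Fisher's exact test on inclusion and skipping counts, with Benjamini-Hochberg adjustment over all 9396 covered exons and an FDR of 0.1, called 4.26% of covered exons and 22 of the 786 members (2.80%), 12 of them higher in the male and 10 higher in the female library. On junction reads alone the test called 3.3% of covered exons and 18 members, 16 of them among the 22. At an unadjusted p under 0.05 there were 87 members. Neither this count nor that of the overlapping intervals is given here over all covered exons. The rule used both libraries, and nothing is read from these counts or from the comparison of the called shares. With 1 library of each sex, the test compares 2 libraries and not the sexes.

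**Figure D2:**
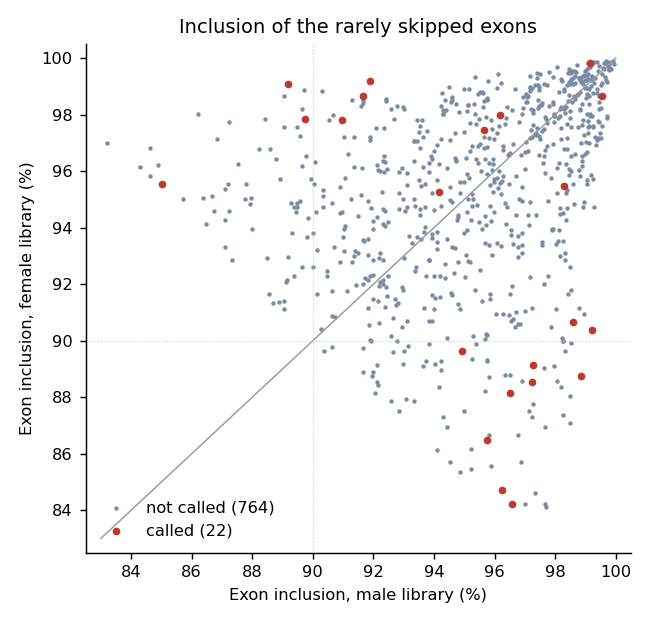
Inclusion of each of the 786 exons in the male (x axis, percent) and the female (y axis, percent) RNA-seq library, with the line of equal inclusion and dotted lines at 90%. Red points are the 22 exons called by the two-sided Fisher's exact test, and the empty lower left corner is set by the rule. The points spread on both sides of the line, 380 being higher in the male and 404 in the female library.

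Rab28, a small GTPase, had the lowest p. Its 89-nt exon had an inclusion of 96.6% (95% Wilson interval 94.2 to 98%) in the male and 84.2% (79.7 to 87.9%) in the female library, with 13 and 49 skipping reads, and the adjusted p of Fisher's exact test was 6.94e-05. The intervals did not overlap, and skipping of this exon leads to an early stop. Cadps, which primes secretory vesicles for release, differed the other way. Its 147-nt in-frame exon stood at 91.0% in the male and 97.8% in the female library (44 and 11 skipping reads, adjusted p = 0.000326 by Fisher's exact test).

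Hsph1, a heat shock chaperone, had a 132-nt in-frame exon at 98.3 and 95.5% in the male and female libraries, with 17 and 49 skipping reads (adjusted p = 0.0137, Fisher's exact test). Trak2, an adaptor of mitochondrial transport, had a 195-nt exon at 97.2 and 88.5% (adjusted p = 0.0147, Fisher's exact test). Snapin, a SNARE-associated protein, had a 47-nt exon at 99.2 and 90.4%, on 1 and 13 skipping reads (adjusted p = 0.0321, Fisher's exact test). All 3 exons were included more in the male library.

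Eef1d, an elongation factor subunit, and Ypel3 were also higher in the male library, the first at 96.5 against 88.2% for its 72-nt exon and the second at 94.9 against 89.6% for its 44-nt exon, with adjusted p of 0.0425 and 0.0306 by Fisher's exact test. Higher in the female library were the 243-nt exon of Aak1, a kinase of clathrin adaptors, at 89.7 against 97.9% (adjusted p = 0.0209), and the 93-nt exon of Fut8, a fucosyltransferase, at 85.0 against 95.5% (adjusted p = 0.0248, both by Fisher's exact test). The exon of Fut8 lies in the 5′ untranslated region.

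Between adjusted p of 0.05 and 0.1 in Fisher's exact test were Mpi (142 nt, 97.3 and 89.2%), the 97-nt exon of Skp1a (99.5 and 98.7%) and Arfip2 (222 nt, 96.3 and 84.7%). The difference at the exon of Skp1a was under 1 percentage point, on 10 and 33 skipping reads. For Arfip2, counting junction reads alone gave an adjusted p of 0.426 in the same test. The other called members were in Ndrg4 (39 nt), Enpp2, Mobp, Slc9a3r2, Ckmt1, Rsrc1, 2310002B06Rik, Ube2k, Tmem55a and Ubl4.

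**Figure D3:**
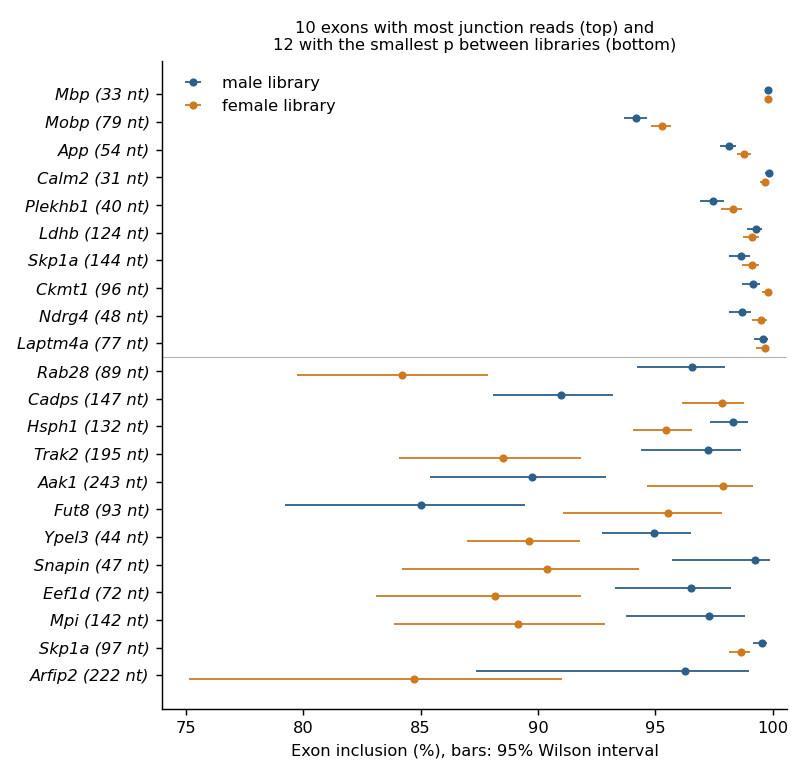
Inclusion (x axis, percent) with 95% Wilson intervals in the male (blue) and female (orange) library, for the 10 members with the most junction reads, 1 per gene (top), and for the 12 members with the smallest p between the libraries (bottom). Intervals at the top are a few points wide at most, while in the lower set Rab28 moves from 96.6 to 84.2% and Cadps from 91.0 to 97.8%.

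The exons were next grouped by the function of their genes, in 15 lists. Over all covered exons of the same length, 786 of 8509 (9.24%) were rarely skipped, and each list is set beside that share as a description. Splicing factors of the SR and hnRNP families had 9 of 45 covered exons in the group (20%), 5 of them with a length that was a multiple of 3. Pcbp2, which binds poly(C), had a 42-nt exon at 92.3 and 95.3% in the male and female libraries, and Hnrnpa2b1 a 120-nt exon at 97.1 and 98.6%. In Hnrnph1, a 139-nt exon whose skipping gives an early stop stood at 95.7 and 98.6%. The core spliceosome list had 5 of 54 (9.26%), among them the branch-point protein Sf1 (76 nt, 92.6 and 90.2%) and U2af2, which binds the polypyrimidine tract (45 nt, 95.3 and 89.3%).

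Neuronal splicing regulators had 3 members of 24 covered exons (12.5%), and none of the 3 had a length that was a multiple of 3. The first 2 were the corresponding 34-nt exons of Ptbp2 and Ptbp1, the neuronal and the general polypyrimidine tract-binding proteins, whose skipping leads to an early stop. Inclusion was 99.4 and 97.2% for Ptbp2 and 94.4 and 92.7% for Ptbp1. The other was a 95-nt exon of Mbnl1, muscleblind, at 92.2 and 96.0%. Genes linked to amyotrophic lateral sclerosis (ALS), a disease of motoneurons, held 8 of 25 (32.0%), with overlapping exons counted separately. They included the exons of Hnrnpa2b1 and Matr3 described above.

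Genes of translation had 20 of 103 covered exons in the group (19.4%), with a median inclusion of 98%. Eif4a2, an initiation helicase, had a 140-nt exon at 99.7 and 99.2%, and the 114-nt in-frame exon of Eif4g2 stood at 98.2 and 98.3%. The list of myelin and oligodendrocyte genes had 7 of 28 (25%), led by Mbp and Mobp above, with the 133-nt exon of Enpp2, autotaxin, at 96.2 and 98%. Genes of the ubiquitin and proteasome system had 22 of 170 (12.9%), such as Usp33 (103 nt, 97.4 and 98.2%) and Usp8 (163 nt, 99 and 99.6%).

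Lists of neuronal membrane and transport proteins were nearer to or below the share of all covered exons. Ion channels had 1 member of 52 covered exons (1.92%), a 97-nt exon of the calcium channel Cacna1b at 97.1 and 87.5%, on 1 and 3 skipping reads. Synaptic vesicle release had 5 of 78 (6.41%), all 5 with a length that was a multiple of 3. They included Cadps, the 84-nt exon of the clathrin assembly protein Snap91 (97.5 and 97.2%) and the 78-nt exon of the syntaxin Stx18 (92.4 and 98.6%). Molecular motors had 4 of 51 (7.84%), again all a multiple of 3, with Kif1b (249 nt, 94.7 and 93.3%), Kif3a (126 nt, 95 and 95.6%) and the dynactin subunit Dctn2 (66 nt, 98.7 and 99.7%). Chromatin regulators had 4 of 97 (4.12%), with Chd3 (102 nt, 91.4 and 93.2%), Atrx (114 nt, 95.3 and 90.2%) and Smarce1 (52 nt, 83.2 and 97.0%).

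The remaining 4 lists lay between 8.45 and 12.0%. Septins and cytoskeleton linkers had 6 of 71, with Sept4 (118 nt, 97.9 and 98.5%), Sept5 (97 nt, 99.5 and 99%) and the 93-nt exon of tau, Mapt, at 99 and 99.4%. Cell adhesion had 5 of 42, with Nrcam (57 nt, 94.6 and 91.7%), the neurexin Nrxn3 (90 nt, 99.5 and 98.2%) and Nfasc, neurofascin (109 nt, 91.6 and 96.1%). Clathrin and endocytosis had 10 of 100, with the adaptor subunit Ap2s1 (150 nt, 99.8% in both libraries), clathrin light chain Clta (54 nt, 97.9 and 93.9%) and Snx2 (164 nt, 99.2 and 97.6%). The calcium signalling enzymes had 6 of 50, with the CaM kinases Camk2g (55 nt, 99.2 and 99.3%), Camk2b (75 nt, 99.5 and 97.4%) and Camk2d (60 nt, 96.4 and 98.3%). Junction reads differed between these genes, and a list of well read genes passes the rule for a skipping read more easily.

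NOVA binding was measured independently of the rule. The CLIP libraries held 65961 to 871804 tags for MN and 2213104 to 6095995 for WSC, so that MN values rest on far fewer tags. Libraries numbered 1 of Chat6 and Chat17 shared 14.7% of the tags of the smaller library at identical positions and strand. Same-numbered Chat6 and Chat17 libraries otherwise shared 4.22 to 4.96%, the other pairs of Chat libraries 0.307 to 8.31%, and pairs of WSC libraries 9.05 to 12.5%. Within each exon and 400 nt on either side, on the transcribed strand, the members together held 768 to 1219 CPM (tags per 1000000 tags of the library) in the MN libraries (median 977) and 1014 to 1153 in the WSC libraries (median 1024). Those ranges overlapped. In WSC, 717 members (92.3%) had at least 1 tag, against 84.9% of all covered exons, and in MN 61.3% against 52.1%. Intermediate exons had a tag in 88.1% of cases in WSC and 62.7% in MN. With at least 200 junction reads the shares in WSC were alike, at 95.5% for rarely skipped, 95.1% for intermediate and 95% for never skipped exons, and in MN they were 66.4, 76.7 and 60.6%. The tags were unevenly spread, as 10 exons held 25.1% of the 18168 WSC tags.

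Where the tags lay differed between MN and WSC. In the exon itself lay 42.9 to 46.8% of the members' tags in the 4 WSC libraries (median 44.3%) and 17.4 to 26.5% in the 8 MN libraries (median 19.8%). The 400 nt upstream held 20.6 to 24% in WSC and 29.5 to 41.4% in MN, and the 400 nt downstream 30.3 to 33.8% and 38.7 to 44.3%. The ranges did not overlap in any of the 3 regions, and the exons make up 12.2% of the bases of these windows. Over all covered exons the medians in the exon were 32.8% for WSC and 17.7% for MN, so a difference between MN and WSC was also seen outside the rarely skipped exons. In WSC the share was 38.9% for never skipped, 27.2% for intermediate and 9.998% for mostly skipped exons, and in MN it was 24.7, 14.0 and 9.73%. Without the 6 most tagged members the medians of the rarely skipped exons were 43.7% for WSC and 20.6% for MN.

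**Figure D4:**
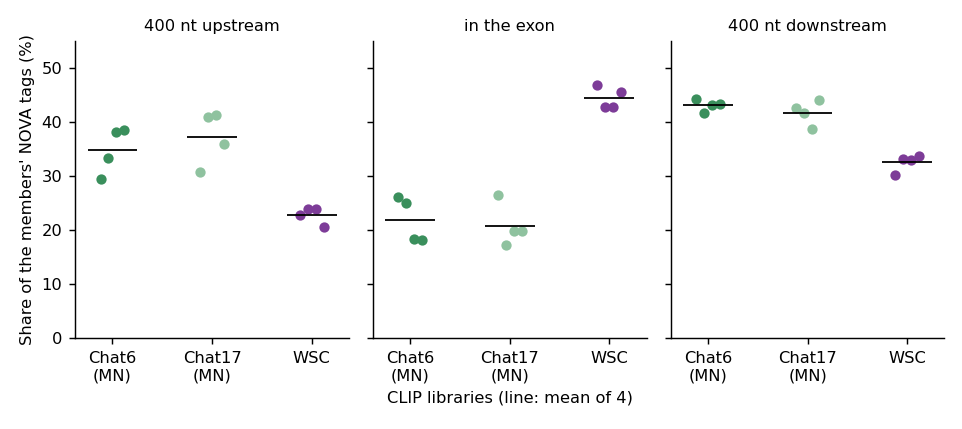
Share of the NOVA tags of the rarely skipped exons (y axis, percent) that lay in the 400 nt upstream, in the exon and in the 400 nt downstream, for each of the 12 CLIP libraries (points, by group on the x axis) with the mean of 4 libraries as a line. The 4 WSC libraries lie at 42.9 to 46.8% in the exon, above the 8 MN libraries at 17.4 to 26.5%.

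To show what lay under the tags, the 30 bases around the most tagged position of the exons with the strongest binding are given, with each YCAY, that is a CA with a C or T on either side, in capitals (searched on the transcribed strand only, overlaps allowed). All but the last are positions of WSC tags, chosen for their tag counts or for their difference between MN and WSC.
Pkp4 (chr2:59190349-59190378, plus strand, in the exon): gttcctattccTCACcagcaagagaacaaa
Gabbr1 (chr17:37191134-37191163, plus strand, in the exon): agaTCATccTCATgcccggctgcagctctg
Psme3 (chr11:101178987-101179016, plus strand, in the exon): cctcccagtccctgaccCCATtctccTCAC
Nfic (chr10:80868851-80868880, minus strand, in the exon): ctccagctTCACacaacaCCACaggccggt
Slc30a4 (chr2:122520180-122520209, minus strand, in the exon): aTCATacTCACtctgcttgctttgtggctg
Gpm6b (chrX:162823534-162823563, plus strand, 136 nt downstream): taacTCACtttgcatggtagactaaatagg
Ociad1 (chr5:73701260-73701289, plus strand, 238 nt upstream): actattctttttctggcatggctacgttta
Eif4g2 (chr7:118219617-118219646, minus strand, 162 nt downstream, MN tags): ttctacttttctctgctttttctctctgga
The first 6 windows held a YCAY, and 4 of them held a pair, while the windows of Ociad1 and Eif4g2 held none. Among 190 members whose most tagged position had at least 10 WSC tags, 83.7% had a YCAY in these 30 bases, against 83.3% of 1408 such positions over all covered exons and 35.0% of all 30-base windows around covered exons. The position lay in the exon in 51.6% of these members and in 41.5% of all covered exons. The density of YCAY was alike, at 1.64 per 100 nt inside the rarely skipped exons and 1.67 inside all covered exons. It was 1.62 and 1.61 in up to 400 nt of the intron upstream, and 1.59 and 1.61 in that downstream. Unlike the tag windows, these stretches stop at the end of the intron.

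Counts of NOVA tags were compared between MN and WSC with edgeR's quasi-likelihood test, scaled to the total tags of each library, over the 2396 exon windows with at least 15 tags in all. Adjusted for all of these by the Benjamini-Hochberg method, 8.64% of the windows were higher in MN and 9.68% lower, at an adjusted p under 0.05. Of the 271 member windows that passed the tag minimum, 19 were higher (7.01%) and 28 lower (10.3%), shares near those of all windows. Windows with few WSC tags could pass the minimum only through their MN tags. The median log2 fold change of MN over WSC was -0.40 for the members tested and -0.14 for all windows tested. TMM scaling moved the median of all windows by -1.14 and gave 5 higher and 118 lower members of 271. Over all 2396 windows it gave 35 higher and 890 lower, so that the balance of the directions depends on the scaling. The p-values measure only the spread between these libraries, the MN ones being pools of animals and the WSC ones single animals.

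Eif4g2, a translation factor related to eIF4G, had the lowest adjusted p. The 114-nt exon with its flanks had 0, 10.7, 75 and 30.8 CPM in the 4 Chat6 libraries and 15.2, 12.5, 32.9 and 41.3 in the 4 Chat17 libraries, against 5.30, 4.27, 4.60 and 3.16 in the 4 WSC libraries. All MN libraries other than the one at 0 lay above every WSC library. The fitted log2 fold change was 3.10 ± 0.30 (SE), with an adjusted p of 1.05e-14 in edgeR's quasi-likelihood test.

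Tia1 and Clk1, an RNA-binding protein linked to ALS and a kinase of SR proteins, were also higher in MN. Their windows held only 7 and 13 WSC tags, below the tag minimum, and passed it only through their MN tags. The minimum thus admitted both through the group in which they were then called higher. For the 33-nt in-frame exon of Tia1 the 8 MN libraries had between 0 and 21.8 CPM (median 2.20) and the WSC libraries 0.328 to 0.589, and the log2 fold change was 4.29 ± 0.55 (adjusted p = 4.22e-10, edgeR). It rested on 19 MN tags, of which 9 came from 1 Chat6 library and 8 from 1 Chat17 library, and 4 MN libraries were at 0. For the 91-nt exon of Clk1, whose skipping gives an early stop, MN libraries had 0 to 26.6 CPM (median 5.33) and WSC libraries 0.295 to 1.81, at a log2 fold change of 3.65 ± 0.51 (adjusted p = 8.74e-09, edgeR). When no more than 1 tag was required of a window, the log2 fold changes of Tia1 and Clk1 were 4.29 and 3.65. The adjusted p were then 4.27e-11 and 2.83e-10 (edgeR). The inclusion of the Tia1 exon in WSC was known only from 24 and 17 junction reads, at 92.0 and 88.9%.

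Ube2e2 and Mtap7d1 were higher in MN on 11 and 12 MN tags. Ube2e2, a ubiquitin-conjugating enzyme (51 nt), had a log2 fold change of 2.48 ± 0.58, and Mtap7d1, a microtubule-associated protein (111 nt), 2.21 ± 0.54, with adjusted p of 0.0010 and 0.00159 in edgeR's test. MN libraries at 0 overlapped the WSC libraries in each. The call was lost for Ube2e2 with Chat17 alone against WSC (adjusted p = 0.198) and for Mtap7d1 with Chat6 alone (adjusted p = 0.0917, both edgeR).

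Pkp4, a plakophilin of cell junctions, was bound in WSC and not detected in MN. Its 74-nt exon and flanks had 25.3 to 28.5 CPM in the 4 WSC libraries, 456 tags in all, and 0 in all 8 MN libraries. Set against a floor of 3 tags over the MN libraries together, WSC was at least 17.7-fold higher (adjusted p = 3.65e-12, edgeR's quasi-likelihood test). Of the WSC tags, 439 lay in the exon. The exon was read at 99.4 and 97.1% inclusion in the male and female RNA-seq libraries, but on 38 reads at its first and 593 at its second junction in the male library.

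Gabbr1, a subunit of the GABA-B receptor, had 36.9 to 51.5 CPM in WSC and 0 to 13.2 in MN (median 5.99), with no overlap. The log2 fold change was -2.74 ± 0.35 (adjusted p = 2.74e-10, edgeR), and 727 of its 728 WSC tags lay in the 135-nt exon. This in-frame exon was included at 98.6 and 98.7%. The window was also compared with the other tags of its gene, pooled over libraries, by Fisher's exact test. Log2 values of this comparison are ratios, MN over WSC, of the window's share of all tags of its gene. Each count, of window and rest of the gene in MN and in WSC, had to reach 10 tags, which 40 members did. A lower share in MN, by at least 2-fold at an FDR of 0.1, was called for 1 of them, Gabbr1, and a higher share for 19. Over all 402 windows in this comparison 5.22% were called lower and 39.6% higher. With few MN tags in all, the minimum admits mainly windows well tagged in MN, so this balance of directions is not read as a result. Pooling also leaves the spread between libraries out of these p-values.

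Psme3, a proteasome activator, Nfic, a transcription factor, and Slc30a4, a zinc transporter, had nearly all their WSC tags in the exon as well (285 of 287, 201 of 201 and 197 of 199). Their log2 fold changes were -2.49 ± 0.49, -2.52 ± 0.57 and -2.46 ± 0.58, with adjusted p of 6.47e-05, 0.000543 and 0.000935 in edgeR's test, and they rested on 6, 4 and 4 MN tags. For Psme3 the highest MN library, at 15.2 CPM, overlapped the WSC range of 14.7 to 19.9. That value was 1 tag in the smallest MN library (Chat17 replicate 1, 65961 tags). With Chat6 alone the calls of Nfic and Slc30a4 were lost (adjusted p = 0.0724 and 0.0890, edgeR). Skipping of each of the 3 exons (105, 126 and 147 nt) keeps the frame, and inclusion lay between 90 and 94.7%.

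Ociad1, an endosomal protein, had most of its 770 WSC tags upstream of the 153-nt exon (544 tags), with 36.6 to 48.0 CPM in WSC and 0 to 30.3 in MN. The log2 fold change was -1.66 ± 0.29 (adjusted p = 4.85e-06, edgeR), but for the share of all tags of the gene it was -0.34 (adjusted p = 0.312, Fisher's exact test). Gpm6b, a membrane glycoprotein of neurons and oligodendrocytes, had the most WSC tags of all members, 797, of which 753 lay downstream of its 91-nt exon. It had 11.0 to 66.5 CPM in MN and 39.0 to 54.8 in WSC, and the log2 fold change was 0.08 ± 0.21 (adjusted p = 0.827, edgeR). For the share of all tags of the gene it was 0.60 (adjusted p = 0.000356, Fisher's exact test), a higher share in MN but under 2-fold. With TMM scaling the log2 fold change was -1.20 (adjusted p = 0.000227, edgeR), so that its direction depends on the scaling. Atp6v0e2, a proton pump subunit, had 497 of 545 WSC tags downstream. The most tagged position was 363 nt from the exon, past the end of the downstream intron of 261 nt. The window had 9.18 to 45.5 CPM in MN and 28.5 to 34.2 in WSC, with a log2 fold change of -1.14 ± 0.30 (adjusted p = 0.00397, edgeR). For the share of all tags of the gene the direction turned, at 0.18 (adjusted p = 0.533, Fisher's exact test). Without Chat17 replicate 4 the call was lost (adjusted p = 0.112, edgeR).

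**Figure D5:**
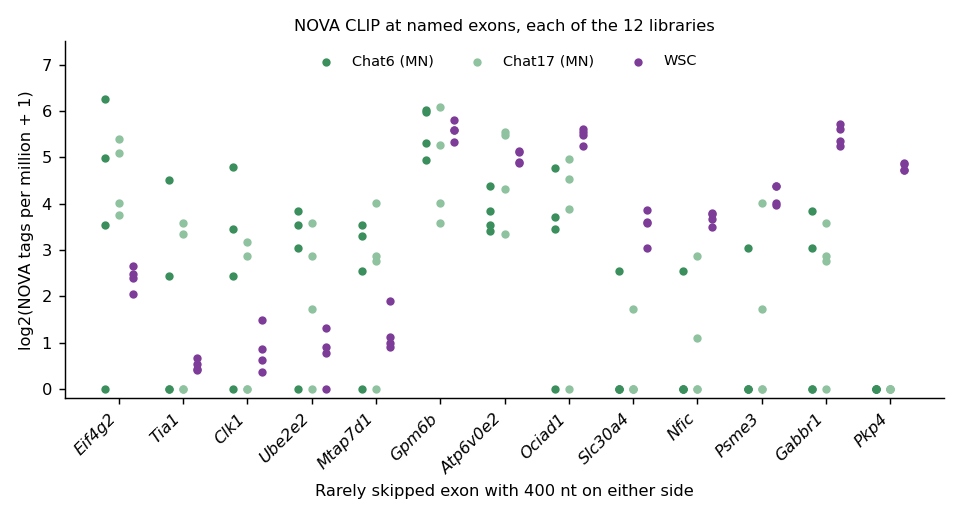
NOVA tags in the windows of the rarely skipped exons described above, as log2 of CPM plus 1 (y axis), with 1 point for each of the 12 CLIP libraries by exon (x axis). Exons on the left are higher in MN (both greens) and those on the right higher in WSC (purple), with Gpm6b between them overlapping in all groups. Pkp4 is at 0 in all 8 MN libraries, and several exons higher in MN also have MN libraries at 0.

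The called members differed in where WSC tags lay, as seen after their values were known. Of the 28 lower in MN, 18 had more than 50% of their WSC tags in the exon, against 2 of the 19 higher in MN and 41.4% of all members tested. The same counts are not given over all called windows. Over all covered exons, too, WSC tags lay in the exon more often than MN tags (medians 32.8 and 17.7%), so this is not read as particular to the group. No MN tag was counted for 12 of the 28 and for 31 of all 273 members tested, counted by event. Some overlapping exons, such as those of Hnrnph1 and Fxc1, counted the same tags. Among the genes named above, the window of Cadps (147 nt) had a log2 fold change of 1.18 (adjusted p = 0.00516, edgeR) and a higher share of the tags of its gene in MN (log2 1.06, adjusted p = 0.000177, Fisher's exact test), but of -0.10 with TMM scaling (adjusted p = 0.85, edgeR). That of Sept5 (97 nt) had -2.61 (adjusted p = 0.00206, edgeR), and its call was lost without Chat17 replicate 4 (adjusted p = 0.0911, edgeR). Another 4 lay close to the threshold, and leaving out 1 library at a time ended the call in 6 to 10 of 12 cases each. These were Hnrnph1 (139 nt, log2 fold change 1.45, adjusted p = 0.0421), Ptbp2 (34 nt, 0.80, adjusted p = 0.0429), Ckmt1 (96 nt, -2.15, adjusted p = 0.0383) and Hsph1 (132 nt, -2.53, adjusted p = 0.0497), all by edgeR. For the share of all tags of the gene Hnrnph1 turned to -0.66 (adjusted p = 0.178) and Ptbp2 had 0.19 (adjusted p = 0.494, both by Fisher's exact test). With TMM scaling Ptbp2 turned to -0.46 (adjusted p = 0.254, edgeR). The exon of Ptbp2 had 187 of its 229 WSC tags upstream and 1 in the exon, and that of Cadps 134 of 179 upstream.

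Chat6 and Chat17 were compared with each other in the same way. edgeR called 0 of 2160 windows, with 88 at an unadjusted p under 0.05, and 0 of the 240 member windows among them, with 15 at an unadjusted p under 0.05. Each line alone against WSC gave fewer calls than both together. For Chat6, 12 of 248 members were higher and 8 lower, against 73 and 61 of all 2245 windows. For Chat17, 6 of 259 members were higher and 7 lower, against 95 and 84 of all 2288 windows. No other measurement of these exons in motoneurons was analysed here, so their inclusion in MN is not given.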

How the data were processed

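RNA-seq libraries of whole spinal cord were aligned to mm9 with OLego and quantified with Quantas by the authors, who deposited counts of junction, inclusion and skipping reads per cassette exon, and RPKM per gene. CLIP tags were aligned with Novoalign, and the authors deposited unique tags in BED files whose score column was not used; 1 row was counted as 1 tag. The label of Chat6 replicate 2 also lists mm10, but 77.3% of its tags lay in mm9 genes. There were 0 unused sample columns. The gene totals were 72006019 reads in the male and 65625173 in the female library.

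Members and gene lists were chosen with earlier results of these data known. Exons were placed on the mm9 genome where the introns of their gene best began with GT or GC and ended with AG. Annotated exon ends also counted (13167 of 13189 events and 785 members were placed). Differences in inclusion were tested exon by exon with Fisher's exact test, two-sided, from the inclusion and skipping counts in the deposited tables (scipy 1.17.1). CLIP windows were tested with edgeR 4.0.16 in R 4.3.3, with DESeq2 1.42.0 as an alternative. The design had named TMM scaling and filterByExpr. On simulated counts TMM gave 174 false calls over 2167 windows against 2 with library totals, and filterByExpr left 42 windows of the real data. Library totals and a minimum of 15 tags were then used. The counts were simulated in proportion to library totals, so the simulation cannot tell which scaling suits the real libraries. In that simulation, 68% of windows raised 4-fold and 18.8% of those lowered 4-fold were recovered. Shares have 95% Wilson intervals.

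Exons were named by rule: the 10 with the most junction reads, the 12 with the smallest p between RNA-seq libraries, the 6 with the smallest p in each direction of the CLIP comparison, the 6 with the most WSC tags, the nearest 2 on either side of the threshold, and up to 3 per gene list by junction reads. S100a1 and the other exons with uneven junctions, and the called genes beyond these ranks, were chosen after their values were seen. Spinal cord identity was checked on marker genes. The 7 motoneuron markers had 0.647 to 51.3 RPKM and muscle markers were at most 0.776. The 4 Hox genes of spinal position had 4.17 to 49.4 RPKM. The 3 forebrain markers had 0 to 2.86 RPKM. Of these, Neurod6 (2.86 male, 2.26 female) lay above the motoneuron markers Isl1 (0.647, 0.663) and Mnx1 (0.935, 1.92). Some sequence of chromosome 18 and of untranslated regions, and some exons that the rule would name, are not reported here.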

Additional observations from a re-analysis of the deposited data

Results flagged for a closer look

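In groups of 4 libraries, 7 of 52 sets of values had 1 library set apart from the other 3 by the gap test of Dixon, which flags about 1 in 20 groups by chance. For all rarely skipped exons together, 1 WSC library stood above the rest at 1153 CPM (tags per 1000000 tags of the library), against 1014 to 1030 in the other 3. At Mtap7d1, the highest WSC library had 2.71 CPM. Among MN libraries, all with few tags, the highest Chat6 library had 4.84 CPM at Nfic and 4.84 at Slc30a4, and 7.26 at Psme3, while the other 3 Chat6 libraries had no tag there. The highest Chat17 library had 15.2 CPM at Psme3 and 2.29 at Slc30a4. These Chat6 values rest on 2 or 3 tags each, and the Chat17 values on 1 tag at Psme3 and 2 tags at Slc30a4.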

How the results depend on the processing

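Of the 786 exons, 373 met the rule with at least 3 skipping reads, 425 above 95% and 492 by the smaller inclusion junction. By 1 library alone the rule kept 1286 to 1297 exons, of which 711 and 722 were among the 786. The share with a length that is a multiple of 3 moved by less than its interval in each alternative tried. At an FDR of 0.05, Fisher's exact test called 249 of 9396 exons and 9 members, no longer including Mpi, Skp1a and Arfip2.

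CLIP calls were least stable. Against 439 windows (members 19 higher, 28 lower in MN), the design as written, with TMM and filterByExpr, tested 42 windows and called 30 (1, 3). TMM alone called 925 (5, 118), filterByExpr alone 35 (1, 3), DESeq2 281 (6, 23), no filter 375 (19, 15) and a 200 nt window 317 (11, 19). Chat6 alone gave 134 (12, 8), Chat17 alone 179 (6, 7), and the comparison within the gene 180 of 402 windows (19, 1). Leaving out 1 library gave 210 to 428 windows, members 8 to 20 higher (8 without Chat6 replicate 3) and 10 to 28 lower (10 without Chat17 replicate 4). TMM alone, filterByExpr alone, single lines and the omission of both Chat replicates 1 (370 windows, 16 and 20 members) were chosen after seeing the data. Of the reported exons ranked by p in either direction, the calls lost were the ones given there, and Ube2e2 and Mtap7d1 with TMM (adjusted p = 0.0566 and 0.122, edgeR). None of these changed direction. For the share of all tags of the gene, Atp6v0e2 (0.18) and Hnrnph1 (-0.66) turned, and with TMM Cadps (-0.10), Ptbp2 (-0.46) and Gpm6b (-1.20) did. The cause was not tested. Shallow MN libraries limit what can be called.

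The labels do not say that replicate numbers pair the CLIP libraries, and the numbers were not used as pairs, since not every same-numbered pair was over 0.1. As a hint from the data, the deviations of Chat6 and Chat17 libraries of the same number correlated at 0.0148 to 0.129, 3 of 4 over 0.1, and none of the other 44 pairs was over 0.1. Shared tags had a median of 4.83% in the same 4 pairs and 0.971% in other Chat pairs. The best match bore the same number in 10 of 24 cases. With the number as a block, 316 windows were called (18 members higher, 19 lower), without Atp6v0e2 (adjusted p = 0.073), Ptbp2 (0.0916) and Hsph1 (0.0681, all edgeR).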

Other observations

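Of the 652 genes, 546 held 1 rarely skipped exon, 82 held 2 and 24 held 3 or more. Eif5 held 5, and Fbxw5, a substrate receptor of ubiquitin ligases, and Nat9 held 4 each. In another event with other flanking exons, 60 of the exons belonged to another class, and 26 of these were intermediate or mostly skipped there.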
